A study of Homo sapiens with 2 samples.

Results

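The let-7 family of microRNAs (miRNAs) and LIN28B, the protein that blocks their maturation, were examined in U87MG cells, a human line established from a glioblastoma. The members were the 9 guide strands of the family, taken by name among 1224 listed miRNAs, and the gene LIN28B among 21445 listed genes. The series holds 2 libraries of untreated U87MG cells, 1 of small RNA and 1 of mRNA, both labelled as cancer cells grown in MEM with 10% FBS and 1% antibiotics. There was no replicate, no second line and no normal brain cell, so the values below describe 1 library of each kind of a single line, and no difference could be tested. The small RNA library held 11785001 miRNA reads and 27299683 reads in piRNA entries, whereas the mRNA values come without any depth. Names below leave out the prefix hsa, for human.

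A miRNA is cut from a hairpin first by DROSHA and then by DICER1, and 1 arm of the hairpin, the guide strand, is loaded into an Argonaute protein. Bases 2 to 8 of the guide, the seed, pair with target mRNAs. let-7 guides are scarce in embryonic stem cells and accumulate as cells differentiate, and their best known targets include HMGA2 and MYC. LIN28A and LIN28B bind the loop of let-7 precursors. LIN28A recruits the enzymes TUT4 and TUT7, which add a U tail that marks the precursor for decay by DIS3L2. LIN28B mRNA is itself a let-7 target, so each side can hold the other down.

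The 9 mature sequences are shown because a few bases separate them and every count below rests on telling them apart. They are the sequences deposited with the counts, 5′ to 3′, with T written for U and the seed in capitals.
hsa-let-7i-5p: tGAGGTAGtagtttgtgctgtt
hsa-let-7a-5p: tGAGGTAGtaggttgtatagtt
hsa-let-7f-5p: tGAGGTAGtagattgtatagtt
hsa-let-7b-5p: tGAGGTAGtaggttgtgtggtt
hsa-let-7g-5p: tGAGGTAGtagtttgtacagtt
hsa-let-7e-5p: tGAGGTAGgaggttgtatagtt
hsa-let-7c-5p: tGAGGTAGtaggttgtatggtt
hsa-let-7d-5p: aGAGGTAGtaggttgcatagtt
hsa-miR-98-5p: tGAGGTAGtaagttgtattgtt

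All 9 guides were detected, with 1777729 reads together, and let-7i-5p alone supplied close to 50% of them. Every guide passed 10 reads, as did 51.6% of all listed miRNAs, and every guide passed 1000 reads, as did 12.7% of all listed miRNAs. let-7i-5p had 857077 reads, or 48.2% of the family (exact Clopper-Pearson 95% interval 48.1 to 48.3%). let-7a-5p had 325277 reads or 18.3%, let-7f-5p 218267 or 12.3%, let-7b-5p 168106 or 9.46%, and let-7g-5p 149805 or 8.43%. These 5 guides held 96.7% of the family reads.

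The other 4 guides were much lower and together held 3.33% of the family reads. let-7e-5p had 41874 reads, let-7c-5p 9256, let-7d-5p 5399 and miR-98-5p, a family member under another name, 2668. The highest guide thus had 321 times the reads of the lowest. The widest steps in the order lay between let-7e-5p and let-7c-5p, a ratio of 4.52, and between let-7g-5p and let-7e-5p, a ratio of 3.58. The narrowest lay between let-7b-5p and let-7g-5p, a ratio of 1.12.

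The intervals of all neighbours in this order lay apart, but these intervals cover counting error only. Copies made in PCR cannot be told from separate molecules, as the counts carry no molecular identifiers, and the spread between cultures was not measured. Small RNA ligation can also favour some ends over others, and its part in the order was not tested. All 9 listed guide sequences are 22 bases long, but the sequences of the reads themselves are not given.

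**Figure D1:**
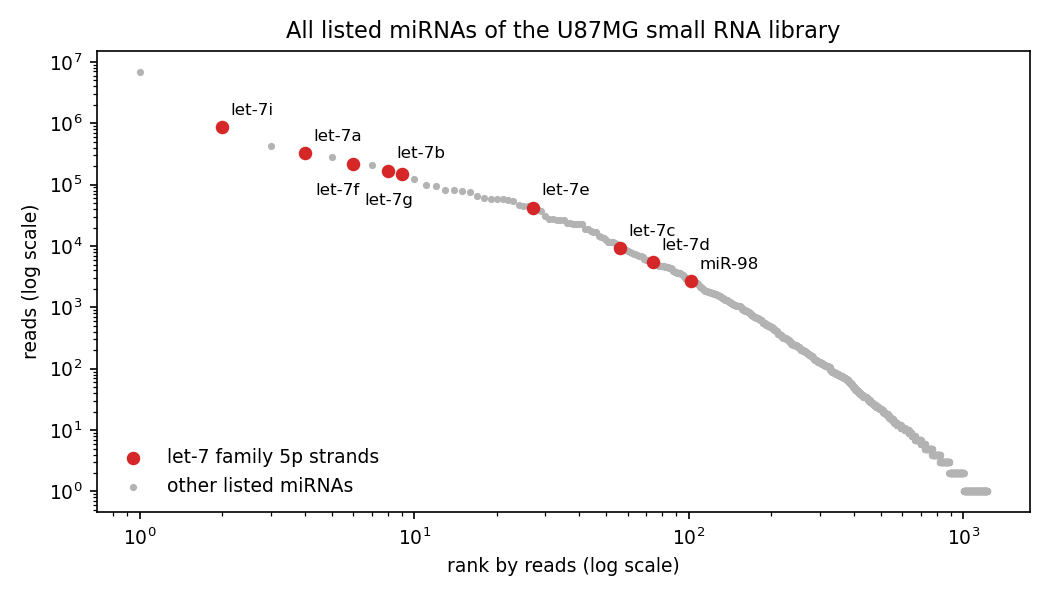
Reads of every listed miRNA in the U87MG small RNA library against its rank, both on log scales; red points are the 9 let-7 family guides and grey points the other listed miRNAs. let-7i-5p stands at rank 2, let-7a-5p at 4, let-7f-5p at 6, let-7b-5p at 8 and let-7g-5p at 9, whereas miR-98-5p stands at rank 102.

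Summed over all miRNAs that share a seed, the let-7 seed was second in reads. The 1224 names fell into 1010 seeds, of which 885 belonged to 1 name only. The let-7 seed held 15.1% of the miRNA reads, the seed of miR-21-5p 58.8% and the seed of miR-100-5p 4.62%. The let-7 total was spread over 9 names, whereas the miR-21-5p seed had 2 names and the miR-100-5p seed 3. RefSeq lists 11 mature human miRNAs with the let-7 seed. The 2 with no row here were miR-4458 and miR-4500, so the 9 guides were the whole listed pool.

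Outside the seed, the guides differed from let-7a-5p at 8 of the 22 positions in all, and 14 positions were the same in all 9. Written as let-7a-5p base, position from the 5′ end and base of the other guide, let-7f-5p carried G12A, let-7e-5p T9G and let-7c-5p A19G. let-7b-5p carried A17G and A19G, and let-7g-5p G12T and T18C. let-7i-5p was the most different of the abundant guides, with G12T, A17G, T18C and A19T. let-7d-5p carried T1A and T16C, and miR-98-5p G11A and A19T.

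Weighted by reads, the sequence of the pool was therefore not that of let-7a-5p. let-7g-5p and let-7i-5p share a T at position 12, and 56.6% of the family reads belonged to these guides. Position 12 was G in 31.1% of the reads and A in 12.3%. Position 17 was G in 57.7% of the reads and A in 42.3%. Bases 13 to 16, where extra pairing outside the seed often occurs, were the same in 8 guides with 99.7% of the reads, let-7d-5p being the exception. A first-base T, which Argonaute proteins favour as U, was likewise found in all guides except let-7d-5p.

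Guides that differ at 1 base can exchange reads through sequencing errors or mismatches allowed in counting, and the counting rule is not given in the sources used here. Of 36 pairs of guides, 4 differed at 1 base and 10 at 2 bases. let-7c-5p lies 1 base from both let-7a-5p and let-7b-5p, and its reads were 2.85% of those of let-7a-5p and 5.51% of those of let-7b-5p. let-7e-5p lies 1 base from let-7a-5p and had 12.9% of its reads, and let-7f-5p had 67.1%. let-7i-5p differs from its nearest relative, let-7g-5p, at 2 positions. The part of exchanged reads in the lower counts was not tested. With the guides linked by 1-base steps pooled, let-7a-5p, let-7b-5p, let-7c-5p, let-7e-5p and let-7f-5p held 42.9% of the family reads, still under the 48.2% of let-7i-5p.

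**Figure D2:**
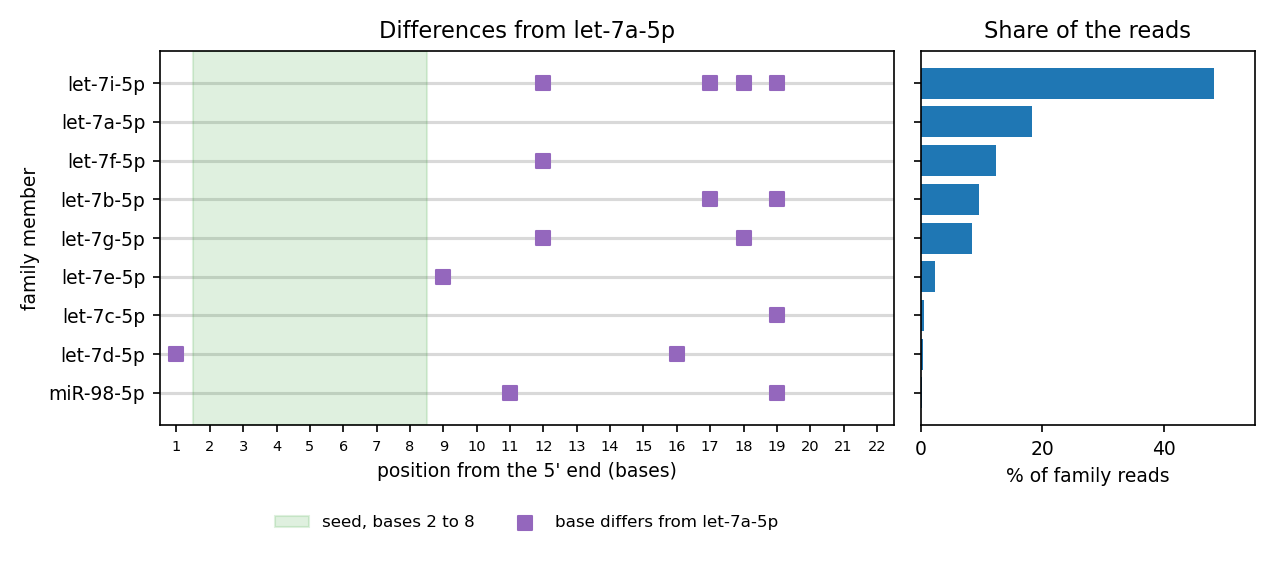
Left, positions (in bases from the 5′ end) at which each guide differs from let-7a-5p, with the seed shaded; right, each guide's percentage of the family reads. No difference falls within the seed, and let-7i-5p, with 48.2% of the reads, differs at 4 positions.

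Nearly all reads of the family came from the guide arm, with let-7d as the exception. Over the family, the 5p strands had 1777729 reads and the 10 listed 3p strands, the passengers, 7192, so that 99.6% of the reads lay on the 5p arm. let-7i had 857077 reads on the 5p arm and 121 on the 3p arm, 7083 guide reads for each passenger read. let-7f had 218267 on the 5p arm and 509 over its numbered passengers, a ratio of 429.

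The other members, apart from let-7d, had between 104 and 191 guide reads for each passenger read. let-7a had 325277 reads on the 5p arm and 3042 on the 3p arm, let-7b 168106 and 1569, let-7e 41874 and 402, let-7c 9256 and 73, and miR-98 2668 and 14. For let-7g the 5p strand had 149805 reads and the 3p strand had no row. let-7d had 5399 reads on the 5p arm and 1462 on the 3p arm, so that 78.7% lay on the 5p arm (77.7 to 79.7%). Its 3.69 guide reads for each passenger read were the fewest of the 8 members with both arms listed.

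Among the 7 members with both arms under the same name, 6 had at least 99% of their reads on 1 arm. Over all 169 such hairpins with at least 100 reads, 26.0% reached that share. Hairpins with a row for only 1 arm were left out, and the part of read depth in this contrast was not tested. The median share of the higher arm was 99.1% in the 7 family hairpins and 95.2% in the other 162. The order of the passengers was not that of the guides. let-7a-3p, the common passenger of let-7a-1 and let-7a-3, led with 2926 reads, followed by let-7b-3p with 1569 and let-7d-3p with 1462. let-7i-3p, from the hairpin of the leading guide, was seventh of the 10 with 1.68% of the passenger reads.

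**Figure D3:**
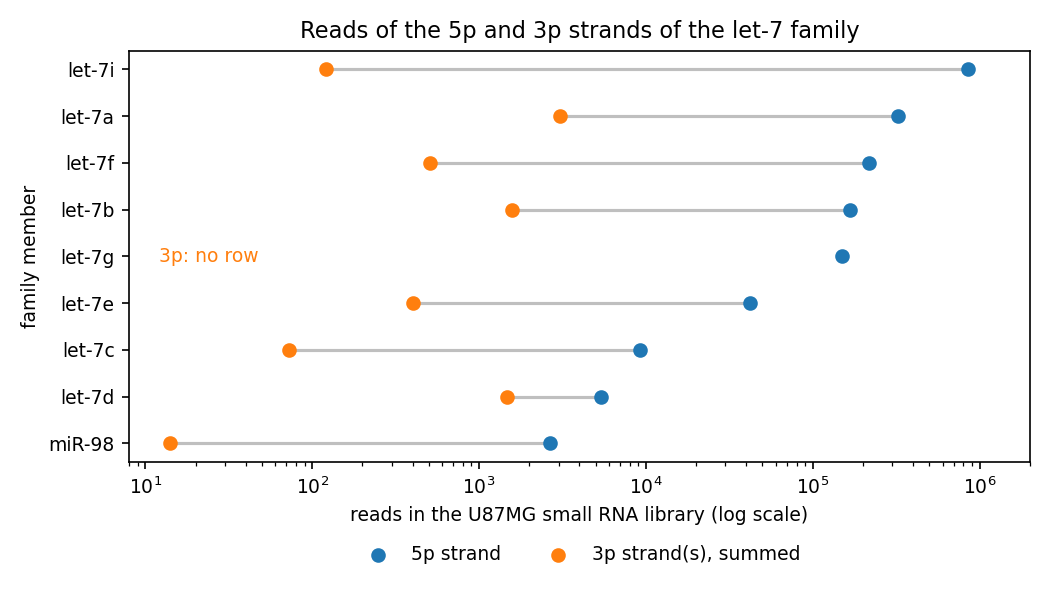
Reads of the 5p strand (blue) and of the 3p strands summed (orange) for each family member in the U87MG small RNA library, on a log scale; a grey line joins the arms. The gap is widest for let-7i, with 857077 and 121 reads, and narrowest for let-7d, with 5399 and 1462.

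Some gene copies that share a guide have different passengers, so passenger reads can be assigned to fewer hairpins than guide reads. let-7a-5p is made from 3 hairpins and let-7f-5p from 2. let-7a-3p had 2926 reads and let-7a-2-3p 116, so most let-7a passenger reads carried the strand common to let-7a-1 and let-7a-3. let-7f-1-3p and let-7f-2-3p were closer, with 282 and 227 reads. Such read ratios are not ratios of transcription.

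The 12 family hairpins lie on 8 chromosomes, and each lies on the same strand as a longer gene that contains it, by RefSeq on GRCh38.p14. let-7a-1, let-7f-1 and let-7d lie within MIRLET7A1HG on chromosome 9, with 310 bases between the first pair of hairpins and 2400 between the next. let-7a-3 and let-7b lie within MIRLET7BHG on chromosome 22, and miR-98 and let-7f-2 within HUWE1, a ubiquitin ligase gene, on chromosome X. let-7a-2 lies within MIR100HG on chromosome 11, let-7c within MIR99AHG on chromosome 21, let-7e within SPACA6 on chromosome 19, let-7g within WDR82 on chromosome 3 and let-7i within MIRLET7IHG on chromosome 12.

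All 8 host genes were at 1 FPKM or more in the mRNA library, as were 64.6% of all listed genes, with a median of 10.8 FPKM against 2.96 FPKM over all listed genes. FPKM is a count of fragments scaled by gene length and library size. The highest hosts were the coding gene WDR82 at 28.1 FPKM and the long non-coding MIR100HG at 23.7. SPACA6, listed under its older symbol SPACA6P, was at 12.3 FPKM, MIRLET7BHG at 9.38 and MIRLET7A1HG at 7.32, and HUWE1 lay between MIR100HG and SPACA6. MIRLET7IHG, the host of the leading guide, was at 3.81 FPKM, and MIR99AHG, the host of let-7c, at 3.68. These lowest hosts had nearly the same FPKM, while let-7i-5p had 92.6 times the reads of let-7c-5p. Guides of 1 host also differed: in MIRLET7A1HG, let-7d-5p had 5399 reads, while let-7a-5p and let-7f-5p, which also have hairpins elsewhere, had 325277 and 218267. Whether the mRNA library was stranded is not given, so reads of a gene on the other strand cannot be told apart from those of a host.

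The let-7a-2, let-7c and let-7e hairpins share a transcript with miRNAs of the miR-99/100 and miR-125 families. let-7e-5p had 41874 reads, miR-99b-5p 56671 and miR-125a-5p 59154, all within a factor of 1.41. let-7c-5p had 9256 reads and its partner miR-99a-5p 57734, a ratio of 0.160 (interval 0.157 to 0.164). That interval covers counting error only, and the part of reads exchanged with similar miRNAs in either count was not tested. miR-100-5p, the partner of let-7a-2, had 430317 reads, against 325277 of let-7a-5p, which also has hairpins elsewhere. miR-125b-5p, a partner of both let-7a-2 and let-7c, had 37783.

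The hairpins are shown next because LIN28 proteins hold a short motif in the loop, GGAG, through their zinc knuckles. The motif was searched on the RNA strand only, as the 4 letters GGAG, between the end of the 5p strand and the start of the 3p strand. It was present in 9 of the 12 hairpins, in each case starting 8 bases before the 3p strand, and in let-7e there was a second copy. The loops without these letters were those of let-7a-3, let-7b and miR-98. Among other RefSeq hairpins with both arms and with 23 to 36 bases between them, the range of the family, 9 of 51 (17.6%) held GGAG there. The examples below, from RefSeq on GRCh38.p14, are the hairpin of the leading guide, the hairpin with both copies, and 2 that lack the motif, with GGAG in capitals.
let-7i, chr12:62603686-62603769, plus strand: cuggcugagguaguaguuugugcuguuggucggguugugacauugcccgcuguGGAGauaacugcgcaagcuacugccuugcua
let-7e, chr19:51692786-51692864, plus strand: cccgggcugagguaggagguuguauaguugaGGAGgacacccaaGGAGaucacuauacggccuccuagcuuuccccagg
let-7b, chr22:46113686-46113768, plus strand: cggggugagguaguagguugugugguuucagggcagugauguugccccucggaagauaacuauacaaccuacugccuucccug
let-7a-3, chr22:46112749-46112822, plus strand: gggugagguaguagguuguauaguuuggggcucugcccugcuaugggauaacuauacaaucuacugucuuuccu

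Most guide reads came from guides whose hairpins all hold the motif, but 9 of the 12 hairpins hold it. let-7i-5p alone, 1 of these guides, held 48.2% of the family reads. The 6 guides made only from hairpins with GGAG in the loop (let-7i, let-7f, let-7g, let-7e, let-7c and let-7d) held 72.1% of the family reads. let-7b-5p and miR-98-5p, made only from hairpins without it, held 9.61%, and let-7a-5p, made from both kinds, 18.3%. let-7b-5p, at 168106 reads, was among the 5 abundant guides, and miR-98-5p, at 2668, was the lowest of all 9.

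**Figure D4:**
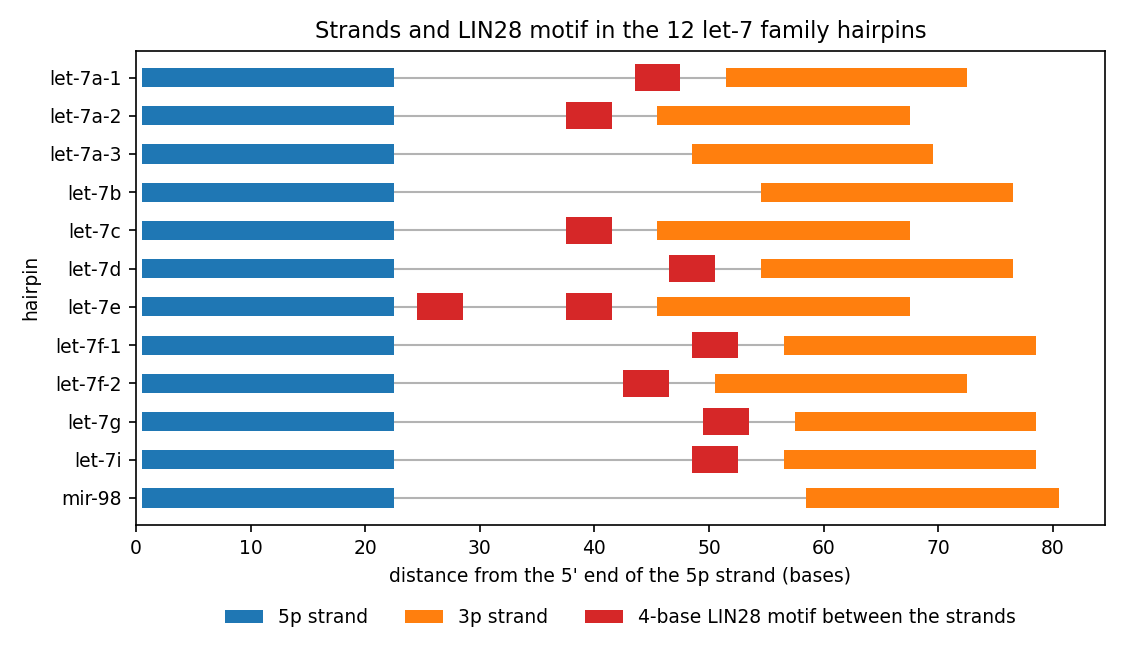
The 12 let-7 family hairpins aligned at the 5′ end of the 5p strand, in bases, with the 5p strand in blue, the 3p strand in orange and the GGAG motif between them in red. The motif starts 8 bases before the 3p strand in 9 hairpins and is missing from let-7a-3, let-7b and miR-98.

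let-7 precursors also differ in their ends, which in human cells decides how TUT enzymes act on them. Group I precursors (let-7a-2, let-7c and let-7e) are ready for DICER1, whereas group II precursors (the other hairpins) first need a single U added to the 3′ end. The 6 guides made only from group II hairpins held 78.8% of the family reads, the 2 made only from group I (let-7e-5p and let-7c-5p) 2.88%, and let-7a-5p, made from both, 18.3%. Wherever let-7a-5p is placed, group II held the larger share, but it also has most of the 12 hairpins. It is the only source of 6 of the 9 guides, and 1 of these, let-7i-5p, held 48.2% of the family reads. With all of let-7a-5p counted in group I, that group held 21.2%.

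Some piRNA entries counted in the same library begin with the sequence of a let-7 guide. Of 10487 entries, 3 had a run of 16 or more bases in common with a family hairpin or guide, and they had 205 reads together. Each begins with a complete guide, runs on into the loop of the hairpin and matches that hairpin over its whole length. They are shown with the guide in capitals.
piR-49144: TGAGGTAGTAGGTTGTATAGTTttagggtc
piR-49143: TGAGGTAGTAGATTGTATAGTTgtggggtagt
piR-49145: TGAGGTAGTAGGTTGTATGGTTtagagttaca
piR-49144 had 120 reads and matches let-7a-1 over 30 bases, 8 of them past let-7a-5p. piR-49143 had 59 reads and matches let-7f-1 over 32 bases, 10 past let-7f-5p. piR-49145 had 26 reads and matches let-7c over 32 bases, 10 past let-7c-5p. Ordered by reads, they stood at ranks 414, 519 and 744 among the piRNA entries. For each read of the entry there were 2711 reads of let-7a-5p, 3699 of let-7f-5p and 356 of let-7c-5p. The database entries have these sequences, and the sequences of the reads themselves are not given, so whether the reads reached into the loop is not known.

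LIN28B was among the lower listed genes of the mRNA library. It lies on chromosome 6, and its row (ENSG00000187772) stood at 0.197 FPKM, below the 1 FPKM that 64.6% of listed genes and 77.5% of protein-coding genes reached. Of the 21445 listed genes, 2573 had a lower value, as had 1453 of the 14376 protein-coding genes (10.1%). The median of protein-coding genes, 7.82 FPKM, was 39.8 times the level of LIN28B. Its nearest protein-coding neighbours in rank were KLHL38 at 0.197 FPKM above it and DLX4 at 0.196 below it. Protein-coding genes held 10.6% of the FPKM sum over all listed genes. Without a depth, the number of fragments behind 0.197 FPKM and its error are unknown too.

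The enzymes of the LIN28 pathway had levels above the median gene, whereas its other LIN28 member had no row. LIN28A, the paralogue of LIN28B, and TRIM71, an RNA-binding ubiquitin ligase repressed by let-7, had no row. The enzymes with which LIN28A acts had rows far above LIN28B. DIS3L2, the nuclease, was at 21.6 FPKM, TUT7 at 19.8, TUT4 at 18.9 and TRIM25, a cofactor of LIN28A, at 17.2. Their FPKM was between 87.4 and 110 times that of LIN28B. In all, 4 of the 7 genes of this list (57.1%) reached 1 FPKM, or 4 of the 5 with a row. The share of protein-coding genes, 77.5%, was counted over genes with a row only. A missing row is not read as a lack of expression, because DDX5, an RNA helicase that nearly all cells use, had none either.

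Of 11 genes for other proteins that act on let-7 precursors, 9 (81.8%) reached 1 FPKM, and these were all that had a row. The share of protein-coding genes, 77.5%, was counted over genes with a row only. The median of these 9 was 63.1 FPKM, against 7.82 over all protein-coding genes. HNRNPA1, which hinders let-7a maturation, was at 397 FPKM, and KHSRP, which binds let-7 loops and aids maturation, at 73.3. SYNCRIP, which binds the let-7a loop, was at 74.3 FPKM, and ILF2, which hinders processing of let-7 primary transcripts, at 63.1. TENT2, which can add a single U, was at 31.1 FPKM. MSI1, which recruits LIN28A in neural cells, had no row, and its paralogue MSI2 was at 9.58 FPKM. All 14 genes of the core miRNA machinery reached 1 FPKM, against 77.5% of protein-coding genes, and their median was 14.2 FPKM. Among them were DROSHA at 30.1, DICER1 at 19.3 and AGO2 at 12.6 FPKM.

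Of 8 factors linked to LIN28B or to let-7 genes, 6 (75%) reached 1 FPKM, and these were all that had a row. The 77.5% of protein-coding genes that did so is over genes with a row only. MYC, which activates LIN28B in other cells, was at 26.9 FPKM, whereas MYCN had no row. IL6, a cytokine and let-7 target, was at 34.7 FPKM, STAT3, which carries its signal, at 31.8, and the NF-κB subunits RELA and NFKB1 at 23.3 and 15.4. TWIST1, a mesenchymal transcription factor, was at 14.7 FPKM, and the stem cell factor SOX2 had no row. The median of the 6 with a row was 25.1 FPKM.

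Reported let-7 targets covered a wide range. Of 34 genes, 27 (79.4%) reached 1 FPKM, or 27 of the 31 with a row. The share of protein-coding genes, 77.5%, was counted over genes with a row only. The median of the targets with a row was 19.3 FPKM, against 7.82 over all protein-coding genes. The highest were CCND1, a G1 cyclin, at 272 FPKM, the integrin ITGB3 at 120, the matrix protein THBS1 at 116, the chromatin protein HMGA1 at 102 and its relative HMGA2 at 56.5. CDK6 was at 42.0 FPKM, and the GTPase genes HRAS and NRAS at 41.7 and 36.2. The 3 lowest with a row were IGF2BP1 at 0.0287 FPKM, CCND2 at 0.0369 and LIN28B, and ARID3B was at 1.32. TRIM71, LIN28A and NR2E1 had no row. IGF2BP3, a relative of IGF2BP1, was at 20.4 FPKM and IGF2BP2 at 14.7. Levels in a single library do not show whether let-7 lowers any of them.

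**Figure D5:**
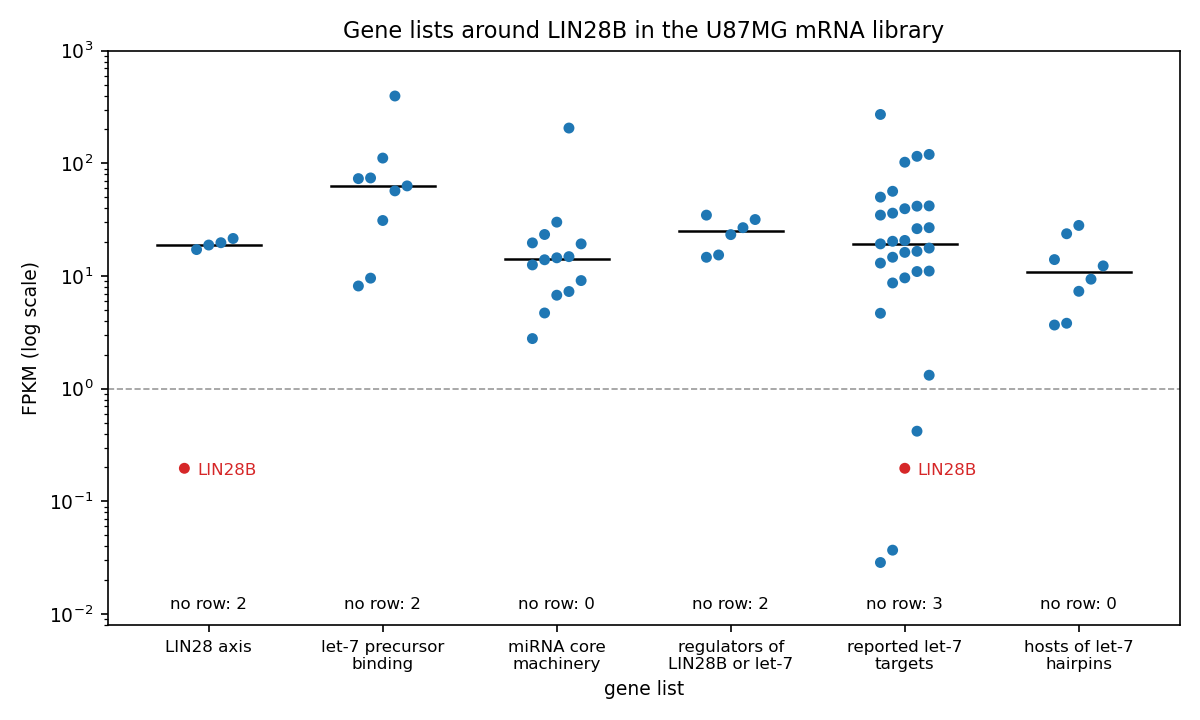
FPKM (log scale) of each gene in 6 lists around LIN28B in the U87MG mRNA library; each point is a gene, the black bar the median of the genes with a row, the dashed line 1 FPKM, and the number at the foot counts genes with no row. LIN28B (red), at 0.197 FPKM, is drawn in the LIN28 axis and among the reported let-7 targets. In the LIN28 axis it lies far below the other genes with a row, which run between 17.2 and 21.6 FPKM. Among the targets, IGF2BP1 at 0.0287 FPKM and CCND2 at 0.0369 lie below it.

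Markers of pluripotent cells, in which LIN28 proteins are usual, were low or had no row, and astrocyte markers were mixed. POU5F1 and NANOG, which define pluripotency, had no row, DPPA4 was at 0.0445 FPKM and SALL4 at 1.55. The marker counts that follow include markers with no row. The 77.5% of protein-coding genes that reached 1 FPKM is over genes with a row only. Of 9 astrocyte and glioma markers, 4 (44.4%) reached 1 FPKM, or 4 of the 5 with a row. They were VIM at 2420, GJA1 at 143, SLC1A3 at 19.3 and NES at 1.38. GFAP, the defining filament of astrocytes, was at 0.331, and S100B, AQP4, ALDH1L1 and SOX2 had no row. All 3 fibroblast markers were high, COL1A2 at 535, COL1A1 at 476 and COL3A1 at 64.2 FPKM. Of 3 markers each, 1 immune, 1 neuronal, 0 endothelial and 0 oligodendrocyte markers reached 1 FPKM. These were CD68 at 52.3 FPKM (immune) and SNAP25 at 16.3 FPKM (neuronal). Their part in the values above was not tested.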

How the data were processed

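The authors deposited raw read counts per mature miRNA and per piRNA entry, each with its sequence. Gene levels were deposited as FPKM values, with Ensembl identifiers. Cutadapt, which trims adapters, and the builds hg19 and GRCh37 are listed in the submitters' processing notes. No source used here gives the counting program, its mismatch rule or the FPKM program. Per the labels, a NEB Next small RNA protocol and reads of 50 bases were used, and the same text stands beside the mRNA library.

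Members were taken by name. The members and lists were chosen with earlier results of these data known. Genes were looked up by Ensembl identifier and, failing that, by current or older symbol. All 12 hairpins and 9 guides were found in RefSeq (GRCh38.p14). The lowest listed miRNA had 1 read, so "no row" means that a name is missing from the list. Shares carry exact Clopper-Pearson 95% intervals (SciPy 1.17.1, Python 3.11.15). Intervals and sequence searches were checked on simulated data. Named were all members, family passengers, seed and cluster partners (5p strands) and genes of the lists, and KLHL38 and DLX4 for rank only. Some genes of the lists enter the counts and medians but are not reported here by name. Alternatives were other denominators, read minimums, FPKM thresholds and groupings of the guides.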

Additional observations from a re-analysis of the deposited data

Results flagged for a closer look

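In the piRNA counts, which the guide counts do not use, 3 of the 10487 entries begin with a whole let-7 guide. piR-49144 had 120 reads (rank 414 by reads), piR-49143 had 59 (rank 519) and piR-49145 had 26 (rank 744). They are listed because they lie outside the guide counts. No control library was there to compare them with, and no test was made.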

How the results depend on the processing

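The family held 15.1% of the miRNA reads, 36.6% with miR-21-5p left out of the total, 4.55% of the miRNA and piRNA reads together, and 15.1% with both arms counted. Counting let-7a-5p with group II raised the group II share to 97.1%, and counting it with group I raised the group I share to 21.2%. The 5p share was 99.5% over members with both arms under the same name. With FPKM rescaled to a fixed sum (TPM), LIN28B was at 0.525 over protein-coding genes and at 0.0556 over all listed genes. Below LIN28B stood 10.1% of protein-coding genes, and 6.03% of genes at or above 0.1 FPKM. The target median was 17.1 FPKM with missing rows at 0. Under the other 18 of 29 settings, values stayed within their counting interval and counts within 1.5 times. Some of these settings could not change the result. Every listed miRNA has at least 1 read, the entries with the let-7 seed are the same 9 guides, and let-7i-5p has no neighbour at 1 base. Leaving out a replicate was not possible. No paired analysis was possible because each kind of library was made once.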
